A study of Mus musculus with 2 samples.

Results

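The muscle microRNAs known as myomiRs are described here by 6 mouse genes, Mir206, Mir133b, Mir1a-1, Mir133a-2, Mir1a-2 and Mir133a-1, out of 2202 microRNA genes counted. The genes were chosen by name, with earlier results of these data known. Of the 6, Mir206 was counted at 566 and 432 reads in the libraries of replicate 2 and replicate 1, and the other 5 genes together gave 2 and 1. The tissue is labelled layer of hippocampus, from B6CASTF1/J male mice (the F1 hybrid of C57BL/6J and CAST/EiJ) 36 days of age. There is 1 group of 2 libraries, labelled biological replicates 2 and 1 and sharing 1 donor label, with no treatment and no second condition.

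MyomiRs are microRNAs enriched in skeletal and cardiac muscle. The miR-1 and miR-206 RNAs share a seed, the stretch near the 5′ end that pairs with target messages, and are known to promote muscle differentiation, while miR-133 RNAs are known to act on myoblast proliferation. The genes lie in bicistronic pairs, a miR-1 or miR-206 hairpin with a miR-133 hairpin, transcribed under myogenic factors such as MyoD, SRF and MEF2. The pair of miR-1 and miR-133a is typical of heart and skeletal muscle, and that of miR-206 and miR-133b of skeletal muscle. In hippocampus they are not among the microRNAs that define the tissue.

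The mature RNAs that RefSeq gives on GRCm38.p6 (the assembly also called mm10) for Mir206, Mir133b and Mir1a-1 are shown. Their sequences are compared with those of other microRNA genes below. The seed, bases 2 to 8 from the 5′ end, is in capitals.
mmu-miR-206-3p: uGGAAUGUaaggaagugugugg
mmu-miR-206-5p: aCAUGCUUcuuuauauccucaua
mmu-miR-133b-3p: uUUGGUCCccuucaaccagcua
mmu-miR-133b-5p: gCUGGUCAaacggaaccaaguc
mmu-miR-1a-1-5p: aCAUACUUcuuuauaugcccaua
The RefSeq table held mature RNAs for 3 of the 6 genes, so Mir133a-2, Mir1a-2 and Mir133a-1 are given by name. For Mir1a-1 it held the 5′ arm and not the 3′ arm, and the seed that miR-1 is known to share with miR-206 lies in the 3′ arm, so the seeds printed for these genes differ. The 5′ arms of miR-206 and miR-1a-1 were equal at 20 of 23 positions. They differed by G5A, C17G and U19C, counted from 1 at the 5′ end with the miR-206 base first, and the first of these falls in the seed.

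The full Mir206 hairpin of 73 bases lies on the plus strand at chr1:20679010-20679082 and is printed with both mature arms in capitals.
Mir206 hairpin: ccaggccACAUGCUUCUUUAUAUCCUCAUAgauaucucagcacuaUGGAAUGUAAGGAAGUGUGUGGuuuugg
The RefSeq hairpin equals the GENCODE M21 transcript of the same gene base for base. Reads were counted per gene, so the 2 arms cannot be told apart.

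Own-strand counts over all genes came to 5279877 in replicate 2 and 4404040 in replicate 1, and CPM below is a gene's count per 1000000 of these. Reads that matched several places took 46.5% and 40.3% of the 15241166 and 12462653 reads and enter no gene's count. Where a gene has a count of 0, a level of up to 3 counts is still allowed, or 0.568 CPM for replicate 2 and 0.681 CPM for replicate 1. PCR copies of 1 molecule cannot be recognised without molecular identifiers, so intervals and floors account for counting error alone. Among brain markers, Mir127 stood at 57832 and 55133 CPM and Mir132 at 17251 and 23835 CPM, while the 3 miR-124 genes had 9 and 12 counts together, each sharing 20 or more bases with 2 other genes. The 7 neuronal marker genes summed to 87376 and 84934 CPM and the oligodendrocyte genes Mir219a-2 and Mir338 to 5649 and 5809 CPM. The endothelial Mir126a stood at 37937 and 9729 CPM, and Mir204, of the choroid plexus, at 1206 and 683 CPM.

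Mir206 (ENSMUSG00000065559.1), which in muscle is known for its part in satellite cell differentiation and in reinnervation of the nerve-muscle junction, lies in an exon of the long noncoding RNA gene Gm28653 on the same strand. Its level was 107 CPM in replicate 2 (95% exact Poisson interval 98.5 to 116) and 98.1 CPM in replicate 1 (89.1 to 108). The intervals overlap, and the mean level was 103 ± 6.44 CPM (SD, n = 2). By mean CPM it ranked 200 of the 2202 genes, a place among the 411 genes that reached 10 counts in both libraries and whose median was 94.2 CPM. No read was counted on the strand opposite Mir206 in either library. In bulk tissue, fewer cells with this RNA and less of it per cell cannot be told apart.

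Mir133b (ENSMUSG00000065480.1), the miR-133 gene of the same long noncoding RNA, lies 3686 bases beyond Mir206 at chr1:20682769-20682887, also in an exon of Gm28653. It had 0 counts in replicate 2 and 0 in replicate 1. Against a floor of 3 counts per library for Mir133b, Mir206 was 189-fold higher in replicate 2 and 144-fold higher in replicate 1. The counting error of Mir206 is not part of these values, so they are not strict lower bounds. These are ratios of counts, and how evenly different microRNAs were captured was not measured. The 3′ arm of Mir133b shares 21 of its 22 bases with Mir133a-1 and Mir133a-2, so its count is uncertain, since reads that match several places are set aside. Its 5′ arm shares at most 11 bases with another annotated microRNA gene, and it too gave no count. How reads divide between the 2 arms was not measured, so this does not settle the level of the gene.

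The second pair lies on the plus strand of chromosome 2, with Mir1a-1 (ENSMUSG00000070144.1) at 180389048 to 180389124 and Mir133a-2 (ENSMUSG00000065460.1) at 180398379 to 180398482. They are 9254 bases apart. Both genes had 0 counts in both libraries, on either strand. Mir1a-1 shares 28 bases with Mir1a-2, and Mir133a-2 shares 31 with Mir133a-1. The 5′ arm of Mir1a-1, printed above, shares at most 14 bases with another gene. How reads divide between its 2 arms was not measured either.

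The third pair lies in an intron of the host transcript Mir133a-1hg on the minus strand of chromosome 18, antisense to an intron of the ubiquitin ligase gene Mib1. Mir133a-1 (ENSMUSG00000065399.2, 10782909 to 10782976) had 0 counts in both libraries. Mir1a-2 (ENSMUSG00000106348.1, 10785481 to 10785552) was at 2 counts in replicate 2 and at 1 in replicate 1. The 95% exact Poisson intervals were 0.0459 to 1.37 CPM and 0.00575 to 1.27 CPM. The strand opposite Mir1a-2 carried 18 and 5 reads, and these are counted for Mir1b, an annotated microRNA gene that contains the whole Mir1a-2 hairpin in antisense. The ratio of the Mir1b strand to the Mir1a-2 strand was thus 9.0 in replicate 2 (95% exact binomial interval 2.15 to 79.98) and 5.0 in replicate 1 (0.559 to 236). The interval of replicate 1 includes equal counts on the 2 strands. Mir1a-2 and Mir1b each share 28 bases with Mir1a-1, and reads that match several places are set aside. Both counts and their ratio are therefore uncertain beyond these intervals.

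**Figure D1:**
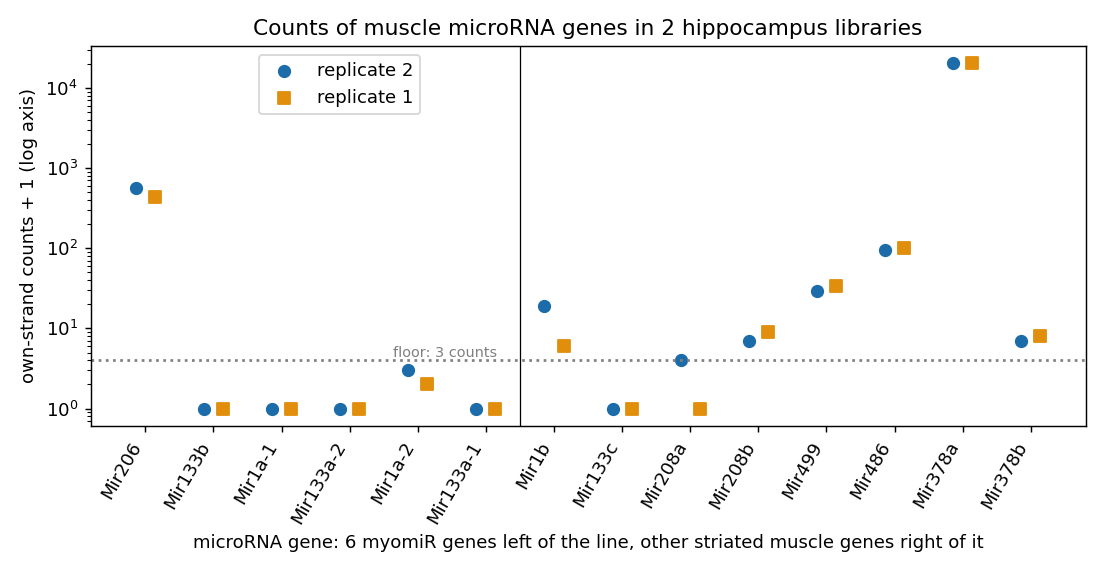
Own-strand counts plus 1, on a log axis, of the 6 myomiR genes (left of the vertical line) and 8 other striated muscle genes (right of it), with circles for replicate 2 and squares for replicate 1. Mir206 stands at 566 and 432 counts. The other 5 myomiR genes lie under the dotted line, the floor of 3 counts that a count of 0 still allows, and 4 of them are at 0.

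Summed over the 6 genes, the level was 108 CPM in replicate 2 (95% exact Poisson interval 98.9 to 117) and 98.3 CPM in replicate 1 (89.3 to 108). Mir206 held 566 of 568 counts in replicate 2 (99.6%, 95% exact binomial interval 98.7 to 99.96) and 432 of 433 in replicate 1 (99.8%, 98.7 to 99.99). The median of the 6 genes was 0 CPM, and the median of all 2202 genes was 0 CPM as well. With 1 of 6 genes at 10 or more counts in both libraries, against 18.7% of all genes, the group's share lay near the background. Of all genes, 1424 had 0 counts in both libraries, as did 4 of the 6 myomiR genes.

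The sequence of the hairpins sets Mir206 apart from the other 5. Over the annotated microRNA genes that do not overlap it, Mir206 shares at most 13 bases with another hairpin, and none of its 54 windows of 20 bases recurs elsewhere. Each of the other 5 genes shares 20 or more bases with at least 1 other gene. In Mir133b the shared part is 2 of 100 windows of 20 bases, which span 21 of the 22 bases of its 3′ arm. The shared part is 9 of 58 windows in Mir1a-1, 9 of 53 in Mir1a-2, 17 of 85 in Mir133a-2 and 17 of 49 in Mir133a-1. Copies elsewhere in the genome were not sought, and how many reads of these genes were set aside as matching several places was not measured. A count of 0 to 3 in these 5 genes is therefore not a measured absence.

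**Figure D2:**
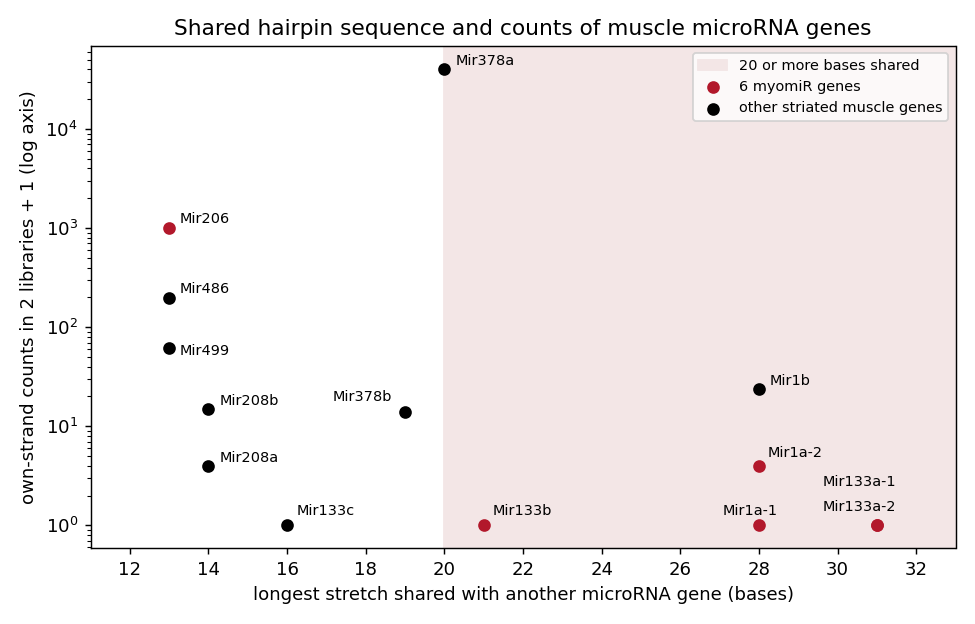
Longest stretch in bases that a hairpin shares with another microRNA gene it does not overlap (horizontal axis) against its counts summed over both libraries plus 1, on a log axis. Mir206 lies at 13 bases and 998 counts, and the other 5 myomiR genes lie in the shaded range of 20 or more shared bases with 0 to 3 counts. Mir133a-1 and Mir133a-2 fall on 1 point. Mir378a, at 20 bases, had 40570 counts, and Mir133c, at 16 bases, had 0.

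The seed of miR-206-3p, GGAAUGU, occurred in 2 further mature RNAs of the RefSeq table, on chromosomes 1 and X, shown to compare what follows the seed. The 3′ arms of the miR-1 genes are not in that table and could not be found by this search.
mmu-miR-6349: uGGAAUGUgggaggggcaugcg
mmu-miR-6382: uGGAAUGUaaagagagcacacaag
Their genes Mir6349 and Mir6382 had 0 counts in both libraries. The seed of miR-133b-3p, UUGGUCC, was found in no other entry of that table.

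In a list of other microRNAs of striated muscle, Mir378a stood above Mir206 in both libraries and the other matched genes stood below it. Of 9 symbols in that list 8 were matched. Of these 8 genes 3 had 10 or more counts in both libraries, against 18.7% of all genes. Their median was 1.87 CPM, against 0 CPM over all 2202 genes. Of the 8, 1 had 0 counts in both libraries, as did 1424 of all genes. Mir499, in an intron of the myosin gene Myh7b on chromosome 2, had 28 counts in replicate 2 and 33 in replicate 1, and its mean was 6.40 ± 1.55 CPM (SD, n = 2). Mir208b, in an intron of the slow myosin gene Myh7, had 6 and 8 counts, and Mir208a, in an intron of the cardiac myosin gene Myh6, had 3 and 0. Mir206 had 20.2 times the counts of Mir499 in replicate 2 (95% exact binomial interval 13.8 to 30.7) and 13.1 times in replicate 1 (9.18 to 19.3). Their mature RNAs are shown because the seeds are close but not equal, UAAGACU in miR-499-5p and UAAGACG in both miR-208 RNAs.
mmu-miR-499-5p: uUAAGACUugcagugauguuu
mmu-miR-208a-3p: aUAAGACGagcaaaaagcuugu
mmu-miR-208b-3p: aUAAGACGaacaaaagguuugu
These 3 genes of myosin introns summed to 7.01 CPM in replicate 2 and 9.31 CPM in replicate 1.

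Mir486, in an intron of Ank1 and known from muscle and red blood cells, had 94 and 101 counts. Mir3107, annotated opposite to it, had 21 and 5. Mir378a, in an intron of the metabolic regulator gene Ppargc1b and known from tissues of high energy use, had 20286 and 20284 counts, or 4224 ± 540 CPM. Its hairpin shares 20 bases with Mir378c, so its count is uncertain. Mir378b had 6 and 7 counts. Mir133c, a relative of miR-133 opposite to Med27, had 0 in both libraries and shares at most 16 bases with another gene. Without Mir378a the other 7 genes summed to 29.4 CPM in replicate 2 and 35.0 CPM in replicate 1, below the level of Mir206 alone.

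Of 3 smooth muscle genes, 2 stood above Mir206. Mir143, known from the smooth muscle of vessel walls, had 29873 counts in replicate 2 and 27794 in replicate 1, which were 52.8 times the counts of Mir206 (95% exact binomial interval 48.6 to 57.5) and 64.3 times (58.5 to 70.9). Mir206 had 0.446 times the counts of Mir145a in replicate 2 (0.403 to 0.492) and 0.469 times in replicate 1 (0.417 to 0.526). Mir145b had 2 and 2 counts. The levels of these genes and of Mir206 in other tissues were not measured, and the cells that gave the Mir206 reads were not identified.

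Of 15 microRNA genes known from endocrine, liver, sensory, blood and pluripotent cells, 1, Mir375, stood above Mir206 in both libraries. In this list of 15, 6 genes reached 10 counts in both, against 18.7% of all genes. The liver microRNA Mir122 had 146 counts in replicate 2 and 133 in replicate 1, so that Mir206 exceeded it by 3.88 times (95% exact binomial interval 3.23 to 4.68) and 3.25 times (2.67 to 3.98). The red blood cell microRNA Mir451a had 304 and 155 counts, and Mir206 exceeded it by 1.86 times (1.62 to 2.15) and 2.79 times (2.31 to 3.37). Its neighbour Mir144 had 201 and 38. Mir375, of endocrine cells, had 2.53 times (2.29 to 2.79) and 2.44 times (2.18 to 2.73) the counts of Mir206. The sensory cell genes Mir183 and Mir182 had 125 and 119 counts in replicate 2 and 42 and 36 in replicate 1, and Mir96 had 0 and 1. The pancreatic genes Mir216a, Mir216b and Mir217 had 2 to 11 counts in replicate 2 and 1 to 5 in replicate 1. Of the 5 genes of the pluripotent cell cluster of Mir302 and Mir367, 3 had 0 counts in both libraries, while Mir302b had 6 and 0 and Mir302d 2 and 2. The neuronal Mir132 exceeded Mir206 by 161 times (148 to 175) and 243 times (221 to 268).

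**Figure D3:**
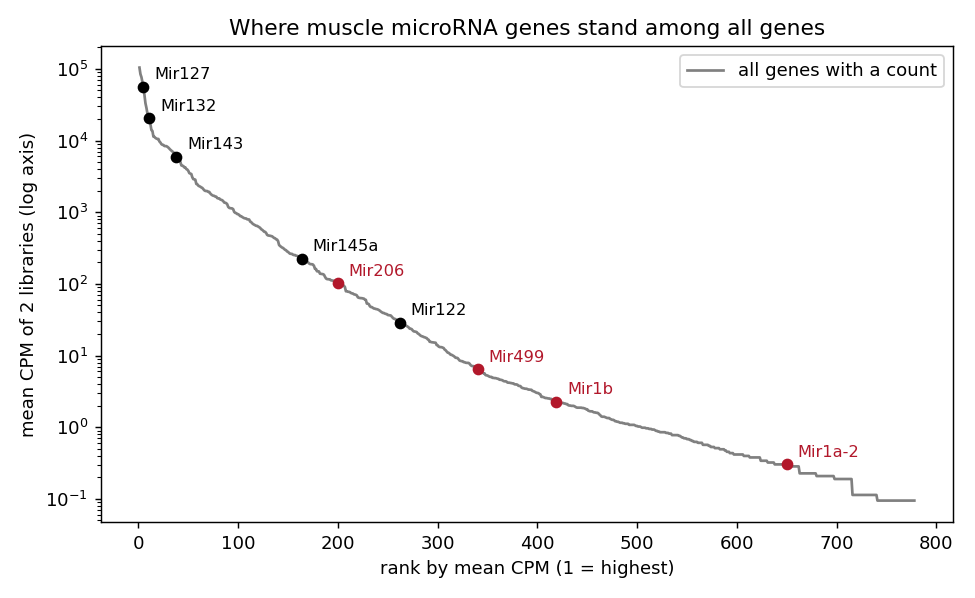
Mean CPM of the 2 libraries, on a log axis, of every gene with at least 1 count, ordered from the highest. Muscle genes are marked in red and genes for comparison in black. Mir206 lies at rank 200 with 103 CPM, between Mir145a at 225 CPM and Mir122 at 28.9 CPM, and Mir499, Mir1b and Mir1a-2 follow far below.

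For the difference of replicate 2 from replicate 1, each of the 504 genes with at least 10 counts in total was tested with the two-sided exact binomial test, conditional on its total. With Benjamini-Hochberg adjustment at 0.05, 55.8% of them differed, 32.5% higher and 23.2% lower in replicate 2. That is 281 genes, 164 higher and 117 lower. When the test allowed for a coefficient of variation between libraries of 0.1, 152 passed, 98 higher and 54 lower, and at 0.3, 14 passed, 13 higher and 1 lower. Of the 6 myomiR genes only Mir206 had enough counts to be tested, and it did not pass (log2 ratio of replicate 2 over replicate 1 0.11, adjusted p = 0.342 in the exact test). The other 5 had 0 to 3 counts in total. The absolute ratio of Mir206 was smaller than the median of 0.45 over the tested genes, and 63 of the 504 had a smaller one. With scaling over genes of 100 or more counts alone the ratio was -0.02, so no direction is given. The test describes these 2 libraries and not a condition.

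Of the 63 tested genes within 2-fold of the mean CPM of Mir206, that gene included, 48 passed, and the median absolute log2 ratio of the 63 was 0.44. With the coefficient of variation at 0.1 or 0.3, 26 and 5 of them passed. The nearest in mean CPM, over 2 libraries, were Mir26a-2 (448 counts in replicate 2 and 542 in replicate 1) and Mir181a-2 (1004 and 68) above it, and Mir148b (816 and 221) and Mir3072 (642 and 366) below it. All 4 passed the exact test (adjusted p 3.97e-08 or less), with Mir26a-2 lower and the other three higher in replicate 2. Of these, 3 passed with a coefficient of variation of 0.1 (not Mir3072), and 1, Mir181a-2, with 0.3. Mir26a-2 shares 25 bases with Mir26a-1 and Mir181a-2 shares 28 with Mir181a-1, so their counts are uncertain. Of the striated muscle list 6 genes had enough counts to be tested, and 1 passed the exact test, Mir378a (log2 ratio -0.28, adjusted p = 1.78e-83), which was lower in replicate 2. Mir499 (log2 ratio -0.45, adjusted p = 0.294), Mir486 (-0.36, 0.117), Mir208b (-0.41, 0.543), Mir378b (-0.29, 0.701) and Mir1b (1.03, 0.0599) did not pass in the exact test. Both smooth muscle genes tested passed it, Mir143 lower (-0.17, adjusted p = 3.90e-47) and Mir145a higher in replicate 2 (0.18, 0.00716). With a coefficient of variation of 0.1 or 0.3 none of these 8 genes passed (adjusted p of Mir378a 0.322 at 0.1). Mir145a also missed the threshold with DESeq2 size factors (adjusted p = 0.0652, exact test) and with scaling over genes of 100 or more counts (0.477), and with the second of these Mir486 passed (-0.49, 0.0178). For comparison, edgeR put the coefficient of variation between the libraries at 0.426.

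**Figure D4:**
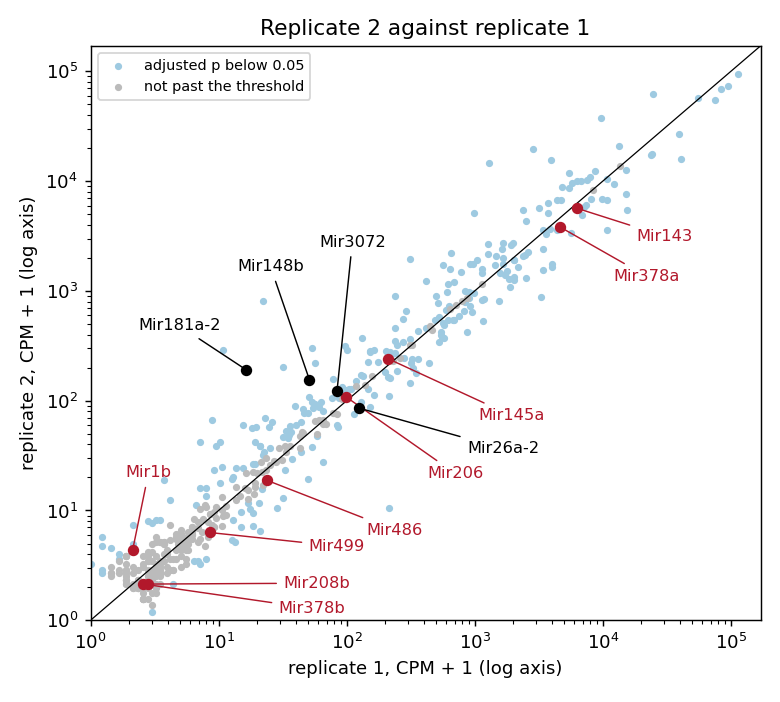
CPM plus 1 of the 504 tested genes in replicate 1 (horizontal) and replicate 2 (vertical), both on log axes, with the line of equal level. Pale blue points passed the exact binomial test. Mir206 and the 8 tested genes of the striated and smooth muscle lists are marked in red; of these Mir378a, Mir143 and Mir145a passed. The 4 genes nearest to Mir206 in mean CPM are marked in black and passed.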

How the data were processed

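The values deposited by the authors are raw counts for each microRNA gene, with no normalization, in 1 file per library. Per the notes the authors deposited beside them, the quantification used mm10 and GENCODE M21, while the aligner is not given in the sources used here. Their layout, with 3 count columns (either strand, own strand, opposite strand) below 4 lines that name no gene, was read from the values. Own-strand counts were used. The lines that name no gene, 65.4% of reads in replicate 2 and 64.7% in replicate 1, were left out of totals and tests. All 2202 identifiers matched GENCODE M21.

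Symbols, positions and hairpins come from GENCODE M21, and mature sequences from RefSeq on GRCm38.p6. A shared stretch was sought on both strands in all annotated microRNA genes that do not overlap the gene. Log2 ratios use TMM-scaled CPM with 1 CPM added. The binomial test was used because 1 group gives no contrast for edgeR's quasi-likelihood test. It was tried on simulated counts with counting error alone, and not on counts with added spread between libraries. The form that allows for a coefficient of variation was tried on counts simulated with 0.3. Replicates are separate samples under 1 donor label, so a difference between these libraries may be technical. Exact test p-values set that difference against counting error alone and do not measure the spread between libraries. The CAST/EiJ alleles were not examined.

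Named genes are the 6 members, the fixed lists, genes that overlap a member or share a seed, and the 2 genes on each side of Mir206 in mean CPM. Mir3107 was added after its values were seen. The members and lists were chosen with earlier results of these data known. Alternatives were other scalings, count minimums and pseudocounts, either-strand counts, added overdispersion, other stretch lengths and each library alone. Tools were R 4.3.3, edgeR 4.0.16, DESeq2 1.42.0, Python 3.11.15, scipy 1.17.1, numpy 2.4.6, pandas 2.3.3 and matplotlib 3.10.9.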

Additional observations from a re-analysis of the deposited data

Results flagged for a closer look

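Reads on the strand opposite Mir1a-2, outside the own-strand counts of the 6 genes, were above the limit of 3 counts that a count of 0 allows, with 18 in replicate 2 and 5 in replicate 1. They are the reads of Mir1b. Mir1a-2 itself had 2 and 1. With 2 libraries, samples far from the others of their group were not sought.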

How the results depend on the processing

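With either-strand counts, whose total is smaller, the summed level of the 6 genes and that of Mir206 were both 112 CPM. Mir206 then held 100% of the counts and ranked 184. Mir1a-2 and Mir1b, which overlap on opposite strands, had 0 either-strand counts in both libraries. Mir1a-2 had 2 and 1 own-strand counts in replicate 2 and replicate 1, so the 100% reflects the loss of these. Per 1000000 of all reads, the sum was 36.0 and Mir206 35.9. With each library alone, Mir206 exceeded the floor of 3 counts for Mir133b by 144-fold to 189-fold and ranked 191 to 198. The log2 ratio of Mir206 between libraries turned to -0.023 when scaling and adjustment used genes with 100 or more counts, and in none of the 9 alternatives run did Mir206 pass (adjusted p 0.126 to 0.814 in the exact test, and 0.801 and 1.0 when it allowed for a coefficient of variation of 0.1 and 0.3). The genes that differed between libraries numbered 152 when the test allowed for a coefficient of variation of 0.1 and 14 at 0.3, against 281 without. With other scalings and minimums they numbered 252 to 277. The number of myomiR genes with 10 or more counts was 1 under either-strand counts, minimums of 5 and 20 and each library alone. With a stretch of 22 bases 4 of the 6 genes shared one, as Mir133b dropped out, and with 18 bases 5 did. Depth limits the 5 genes at 0 to 2 counts per library to an upper bound on the reads that were assigned to them.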
